A study of Mus musculus with 4 samples.

Results

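The genes described here control how cells sense and handle cholesterol: the transcription factor genes Srebf1 and Srebf2, the escort protein gene Scap, the retention protein genes Insig1 and Insig2, the protease genes Mbtps1 and Mbtps2, and the sterol carrier gene Stard4. These 8 members were chosen by name, and Insig1 was set against the others. Of the 8, 7 had a probe annotated to that gene alone, and all 7 were among the 11174 genes kept of 19938 measured. Mbtps2 lies on a probe annotated to Yy2 as well and has no value of its own.

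The cells were mouse peritoneal macrophages of strain C57BL/6, from wild-type mice 8 to 12 weeks old. They had been drawn into the cavity by 1 mL of 4% thioglycolate 3 days earlier and freed of non-adherent cells 3 h after plating. The arrays came from cells kept for 6 h with 500 µM palmitic acid (16 carbons, 0 double bonds), 500 µM oleic acid (18 carbons, 1 double bond) or 500 µM linoleic acid (18 carbons, 2 double bonds), each complexed to fatty acid-free bovine serum albumin, or with no fatty acid. For that control the labels name albumin alone, while the protocol text names a mix of ethanol and KOH. RNA of 3 samples was pooled for each group and run on 1 Affymetrix array, so there is no measure of spread between samples and no test, interval or p-value for any difference. Each difference below is one between a pair of arrays, and a fold of 1.5 (0.58 on the log2 scale) is used to count genes, not to test them.

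SREBP proteins are made as precursors in the membrane of the endoplasmic reticulum, where they are bound to SCAP. When sterols are scarce, SCAP carries them to the Golgi, and the site-1 protease (Mbtps1) and the site-2 protease (Mbtps2) cut them in turn, which frees a fragment that enters the nucleus. There SREBP2 mainly switches on genes of cholesterol synthesis and uptake, and SREBP1 genes of fatty acid synthesis. When sterols are plentiful, INSIG proteins hold SCAP in the endoplasmic reticulum. Insig1, Srebf2 and Stard4 are themselves SREBP targets in mouse or human cells, so that INSIG1 acts in a feedback loop.

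The windows of 300 bases around the RefSeq start sites (250 before and 50 after, build GRCm38.p6) show what SREBP-related letters stand beside these genes. Of the 8 members, 7 had a window there. Stard4 had none and was not searched. All windows were searched on both strands for the sterol regulatory element TCACNCCAC, the E-box CACGTG, the NF-Y box CCAAT and the GC box GGGCGG, and for the sterol element without its last base. Apart from the shorter element inside the longer one, matches did not overlap in the windows printed. They are in capitals, on the gene's own strand, 5′ to 3′. Insig1 and Srebf2 are shown as the members whose products close the feedback loop. Hmgcs1, a sterol synthesis gene lower with palmitic and oleic acid, is shown because its window held the whole sterol element, a choice made after the windows were searched. The windows of 2 other target genes, Idi1 and Fasn, were searched too and held 0 sterol elements, whole or shortened, so 1 of these 3 target windows held one.
Insig1, chr5:28071162-28071461, plus strand: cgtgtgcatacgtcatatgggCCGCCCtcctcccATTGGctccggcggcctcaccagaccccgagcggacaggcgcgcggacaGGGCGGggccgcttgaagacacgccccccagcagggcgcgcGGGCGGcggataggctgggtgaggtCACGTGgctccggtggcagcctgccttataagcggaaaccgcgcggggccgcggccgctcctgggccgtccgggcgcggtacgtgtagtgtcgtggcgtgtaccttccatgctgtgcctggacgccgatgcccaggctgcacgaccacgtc
Srebf2, chr15:82147019-82147318, plus strand: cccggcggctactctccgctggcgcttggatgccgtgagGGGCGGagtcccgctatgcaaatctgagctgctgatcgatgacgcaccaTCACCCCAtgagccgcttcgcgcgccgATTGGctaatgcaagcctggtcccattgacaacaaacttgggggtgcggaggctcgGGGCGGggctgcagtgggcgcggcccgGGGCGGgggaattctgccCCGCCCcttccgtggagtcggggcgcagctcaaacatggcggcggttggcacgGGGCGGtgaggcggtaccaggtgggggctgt
Hmgcs1, chr13:119690101-119690400, plus strand: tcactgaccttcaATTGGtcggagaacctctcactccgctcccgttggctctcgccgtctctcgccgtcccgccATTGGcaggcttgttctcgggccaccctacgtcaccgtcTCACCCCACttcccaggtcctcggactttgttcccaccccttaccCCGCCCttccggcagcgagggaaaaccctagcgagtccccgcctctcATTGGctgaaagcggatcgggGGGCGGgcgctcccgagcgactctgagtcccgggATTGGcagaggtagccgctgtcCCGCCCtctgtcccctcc

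The letters TCACNCCAC occurred in 1.24% of the 32851 windows of all genes and in 0 windows of the 7 members searched. Hmgcs1 held them 137 bases before its start. With the last base left out, a search added after the windows were seen, TCACNCCA occurred in 4.36% of windows. Among the 7 searched members it was found in Srebf2 alone, 162 bases before the start. The Insig1 window held 1 E-box, 101 bases before the start, which 7.15% of all windows hold. It also held 1 NF-Y box and 3 GC boxes, letters found in 37.4% and 35.7% of windows. Scap, in each of its 2 windows, was the other searched member with an E-box. The 3 windows of Insig2 held no sterol element and no E-box, the first of them 3 NF-Y boxes and the others a GC box each. A match is a string of letters and not a shown binding site.

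Over all probes the 4 arrays had median log2 values from 7.07 to 7.13 and correlated pairwise between r = 0.991 and r = 0.996. All 11 macrophage markers, among them Cd68 and Csf1r, lay above the median brightness of 7.09 in every array, and their summed linear signal ranged from 65028 to 69818. Of the 30 measured markers of B, T and NK, mast and dendritic cells, neutrophils and eosinophils, at most 1 per cell type reached that brightness in any array. Of the 10 mesothelial and fibroblast markers 6 or 7 reached it, with a summed signal of 3813 with palmitic acid, 4508 with oleic acid, 4817 with linoleic acid and 4587 in the control. The scaling of the arrays set which direction held more genes past 1.5-fold in some comparisons. Higher genes were 60.7% of these for palmitic acid against the control, and 51.7% after a repeated quantile normalisation. For linoleic acid against the control they were 50% of 8 genes, 22.2% of 9 with arrays centred on their medians and 18.2% of 11 after the repeated normalisation. For palmitic against oleic acid they were 52.3%, and 42.5% after the repeated normalisation, so that most were then lower with palmitic acid. For palmitic against linoleic acid they were 44.0%, and 53.1% with arrays centred. For linoleic against oleic acid they were 67.5%, 52.2% with arrays centred and 50.4% after the repeated normalisation.

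Insig1 was low in a single array, that of oleic acid. Its log2 value was 12.41 with palmitic acid, 11.44 with oleic acid, 12.45 with linoleic acid and 12.23 in the control. Against the control it was 1.74-fold lower with oleic acid (-0.80), while palmitic acid (0.17) and linoleic acid (0.22) lay slightly above it. In the ranking of the 11174 kept genes by oleic acid minus control, Insig1 was number 22 from the lowest. Among the 621 genes within 0.5 of its mean log2 value, the robust SD of that difference over genes was 0.09. Insig1 codes for the INSIG protein whose transcription follows SREBP activity, and its mRNA level here is a bulk measure in which fewer expressing cells and less RNA per cell cannot be told apart.

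Insig2, which codes for the second retention protein and is not under the same feedback, had another order. Its log2 value was 9.97 with palmitic acid, 9.63 with oleic acid, 9.46 with linoleic acid and 9.50 in the control. The palmitic acid array was highest, by 0.47 over the control and so short of 1.5-fold, and the linoleic acid array lay 0.05 below the control. The difference between arrays of Insig1 less that of Insig2 was -0.30 for palmitic, -0.92 for oleic and 0.27 for linoleic acid, each against the control. By sign alone, the INSIG pair lay on the same side of the control with palmitic acid and on opposite sides with oleic and with linoleic acid. Some of these signs rest on small differences. Of all kept genes, 37.9% differed at least as far as Insig1 with palmitic acid. The share was 31.3% for Insig2 with oleic acid (0.12) and 68.8% for Insig2 with linoleic acid. Such signs cannot be read beyond sample error, which was not measured.

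Stard4 codes for a START domain protein that carries cholesterol between membranes. Its log2 value was 8.59 with palmitic acid, 8.33 with oleic acid, 9.57 with linoleic acid and 9.18 in the control. It was low in both the palmitic and the oleic acid arrays and highest with linoleic acid. Against the control it was 1.51-fold lower with palmitic acid (-0.59), at the edge of the 1.5-fold limit, and 1.80-fold lower with oleic acid (-0.84). With linoleic acid it was 1.31-fold higher (0.39), number 45 from the highest of the 11174 genes in that comparison. With arrays centred on their medians, the palmitic acid difference was -0.58 and no longer past 1.5-fold.

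**Figure D1:**
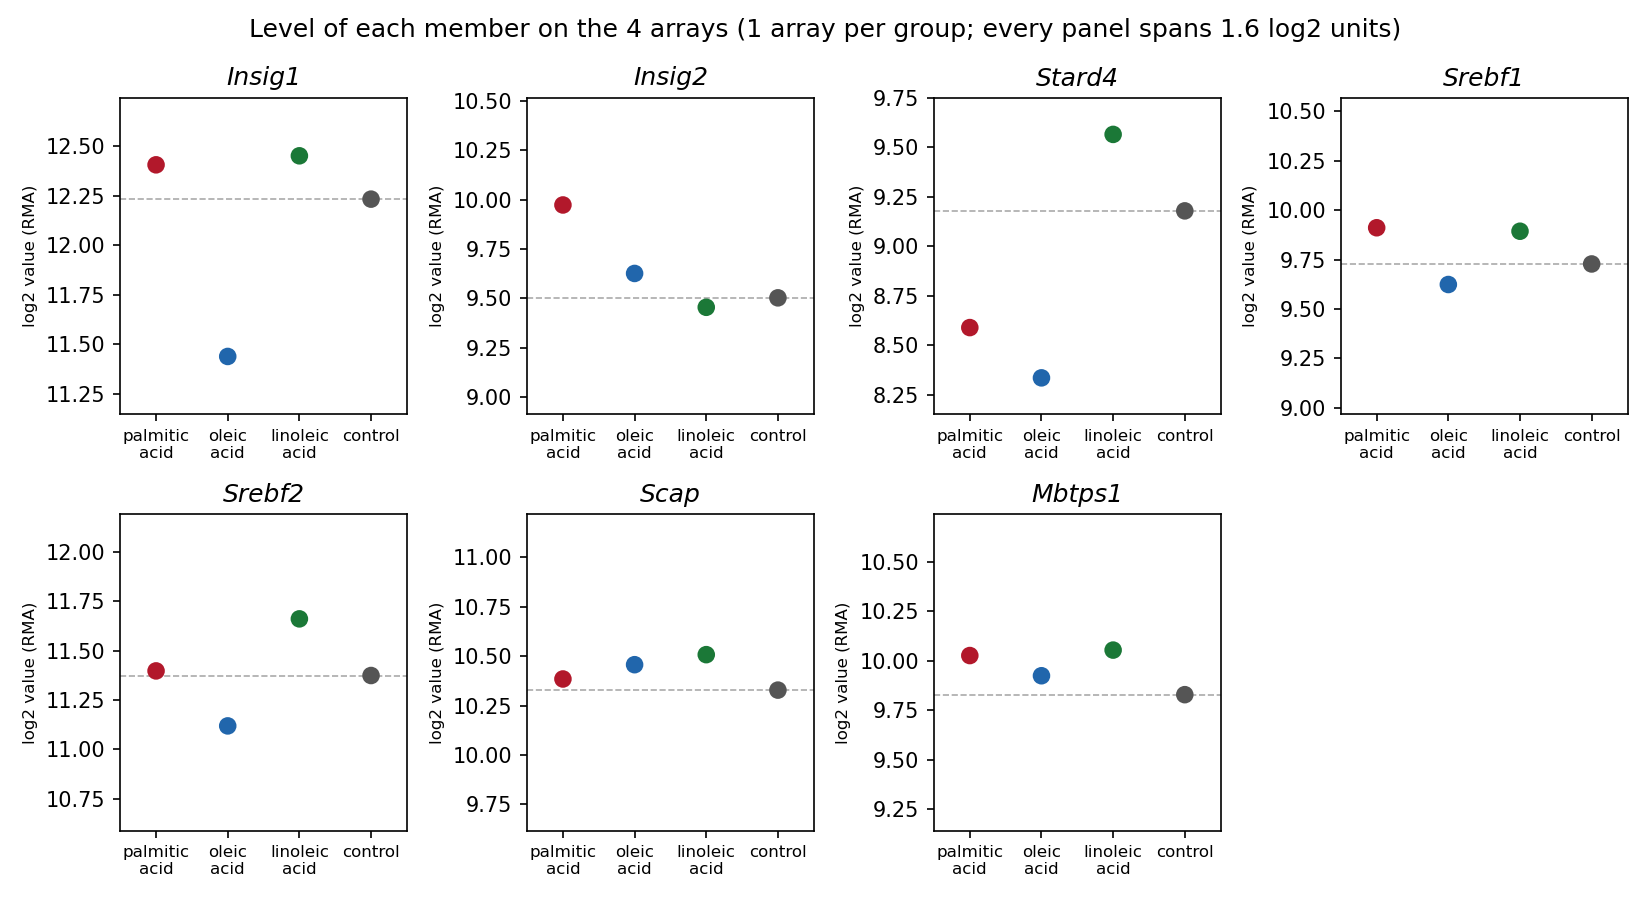
The log2 value (vertical axis) of each of the 7 measured members on the palmitic acid, oleic acid, linoleic acid and control arrays (horizontal axis), 1 point per array, with a dashed line at the control. Insig1 was low on the oleic acid array alone, Stard4 on the palmitic and oleic acid arrays, and Insig2 was highest with palmitic acid.

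Srebf2, which codes for the factor that drives sterol synthesis genes, followed Insig1 in order but over a smaller range. Its log2 value was 11.40 with palmitic acid, 11.12 with oleic acid, 11.66 with linoleic acid and 11.37 in the control. The oleic acid array was the lowest (-0.25 against the control) and the linoleic acid array the highest (0.29), and palmitic acid lay at 0.02. Linoleic minus oleic acid was 0.54, short of 1.5-fold and number 92 from the highest of all kept genes. A second probe, annotated to Srebf2 and 3 other genes, was left out. When it was averaged in, these differences were -0.26, 0.18 and -0.06, and linoleic minus oleic acid was 0.44.

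Srebf1 codes for the SREBP1 isoforms, which drive fatty acid synthesis genes and which this probe does not separate. Its log2 value was 9.91 with palmitic acid, 9.62 with oleic acid, 9.89 with linoleic acid and 9.73 in the control. The palmitic (0.18) and linoleic acid (0.17) arrays lay above the control and the oleic acid array (-0.10) below it. Palmitic minus oleic acid was 0.29, and 20.8% of all kept genes differed at least as far between those arrays.

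Scap and Mbtps1, the escort and the first protease, varied least. Scap was at 10.38 with palmitic acid, 10.46 with oleic acid, 10.51 with linoleic acid and 10.33 in the control, a span of 0.18. Mbtps1 was at 10.03 with palmitic acid, 9.92 with oleic acid, 10.05 with linoleic acid and 9.83 in the control, a span of 0.23. The control was the lowest array for both, and the median span over the 4 arrays of all kept genes was 0.22. The probe shared by Yy2 and Mbtps2 was at 10.48 with palmitic acid, 10.38 with oleic acid, 10.37 with linoleic acid and 10.34 in the control, and neither gene can be read from it alone.

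Set side by side, Stard4 spanned 1.23 and Insig1 1.02 on the log2 scale over the 4 arrays, the 63rd and 133rd widest of 11174 genes. Srebf2 (0.54) and Insig2 (0.52) followed, then Srebf1 (0.29), Mbtps1 and Scap. The oleic acid array was the lowest of 4 for Insig1, Stard4, Srebf1 and Srebf2. The linoleic acid array was the highest for Insig1, Stard4, Srebf2, Scap and Mbtps1. Neighbouring levels, such as those of Insig1 with palmitic and linoleic acid, cannot be ordered beyond sample error, which was not measured.

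Against the control, 0 of the 7 members passed 1.5-fold upward and 1, Stard4, downward in the palmitic acid array, where 2.17% and 1.41% of all kept genes were. With oleic acid 0 were higher and 2 lower, Insig1 and Stard4, beside 0.376% and 0.34% of all genes. With linoleic acid 0 were higher and 0 lower, beside 0.0358% each way. The median difference of the 7 members was 0.17 with palmitic, -0.10 with oleic and 0.22 with linoleic acid, and that of all kept genes was 0.00059, 0.01 and 0.04. Insig1 less the median of the other 6 members was 0.05 with palmitic, -0.79 with oleic and 0.02 with linoleic acid. All 3 comparisons use the same control array.

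**Figure D2:**
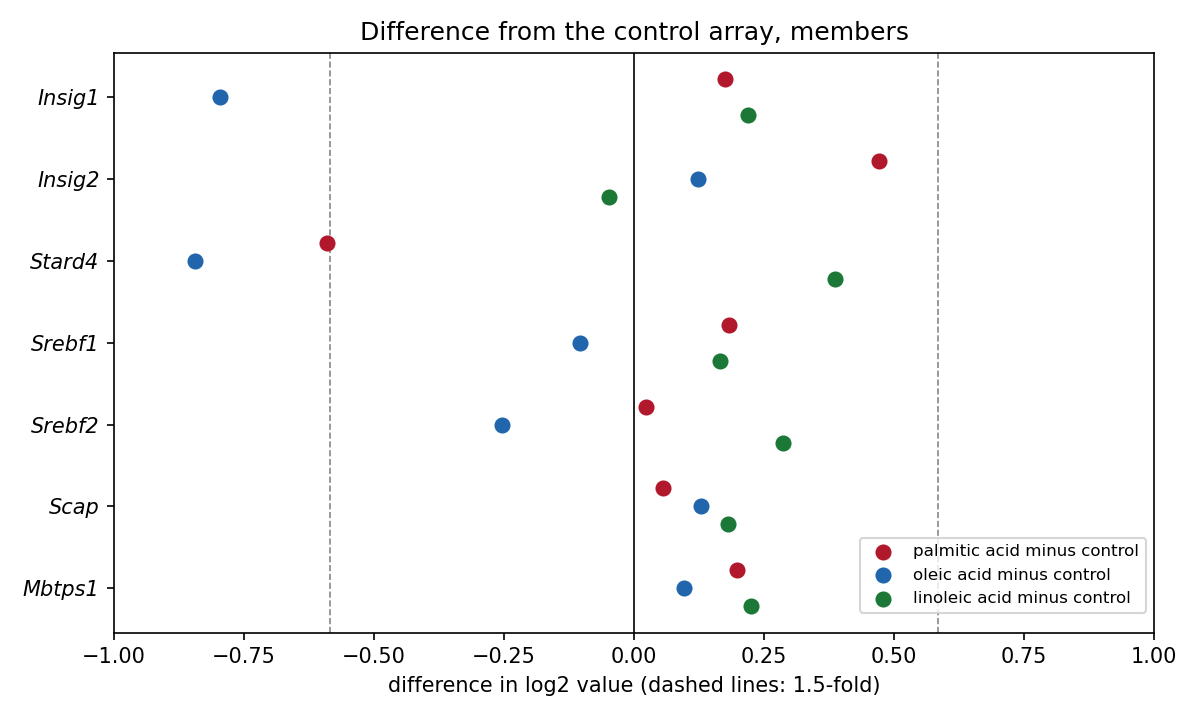
Difference in log2 value from the control array (horizontal axis) for each measured member (rows), 1 point per fatty acid, with dashed lines at 1.5-fold. Insig1 and Stard4 passed the lower line with oleic acid, and Stard4 alone reached it with palmitic acid.

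The fatty acids were compared with each other at the same concentration and time, over 3 pairs. Palmitic and oleic acid, which differ in chain length and in 1 double bond, differed most, among the members, at Insig1. The level was 12.41 with palmitic acid and 11.44 with oleic acid, a difference of 0.97 or 1.96-fold, number 34 from the highest of the kept genes. The other 6 members lay between -0.07 (Scap) and 0.35 (Insig2), and Stard4 was at 0.25. Of 7 members 1 passed 1.5-fold upward with palmitic acid and 0 downward, beside 1.82% and 1.66% of all genes. Insig1 exceeded the median of the other members by 0.70.

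Palmitic and linoleic acid, which differ in chain length and in 2 double bonds, differed most, among the members, at Stard4. It was at 8.59 with palmitic acid and 9.57 with linoleic acid, a difference of -0.98 or 1.97-fold. Insig1 differed by -0.05 and Mbtps1 by -0.03, while Insig2 was higher with palmitic acid by 0.52 and Srebf2 lower (-0.26). Of the members 0 were at least 1.5-fold higher and 1 lower, beside 1.58% and 2.01% of all genes. No interval can be had, so the small difference of Insig1 does not show that the acids act alike on it.

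Linoleic acid has 1 double bond more than oleic acid at an equal number of carbons. Stard4 was at 9.57 with linoleic acid and 8.33 with oleic acid, a 2.35-fold difference (1.23) and number 9 from the highest of all kept genes. Insig1 was at 12.45 with linoleic acid and 11.44 with oleic acid, a 2.02-fold difference (1.02) and number 15. These 2 members passed 1.5-fold upward with linoleic acid and 0 downward, beside 0.707% and 0.34% of all genes. Insig2 alone had a lower value with linoleic acid (-0.17).

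Oleic acid minus control and palmitic minus linoleic acid share no array, so that the value of 1 array does not enter both. The quantile normalisation and probe summary of RMA work across arrays, so an error of 1 array is not fully kept out of the other difference. Stard4 lay at -0.84 in the first and -0.98 in the second, and Insig1 at -0.80 and -0.05. Of the 18 members and pathway genes at least 1.5-fold lower with oleic acid than in the control, 17 were also at least 1.5-fold lower with palmitic than with linoleic acid, and Insig1 was the other. The highest palmitic minus linoleic acid value among those 17 was -0.61, for Msmo1. Of all kept genes, 0.34% were lower with oleic acid than in the control and 2.01% lower with palmitic than with linoleic acid. Over all 38 genes that were lower with oleic acid, 29 were also lower with palmitic than with linoleic acid, and 4 had a higher palmitic minus linoleic acid value than Insig1 (Pdp2, Tmem178, Zfp971 and the gene model Gm14636, named after their values were seen). In the pair palmitic minus control and linoleic minus oleic acid, which also share no array, Insig1 was at 0.17 and 1.02 and Stard4 at -0.59 and 1.23.

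**Figure D3:**
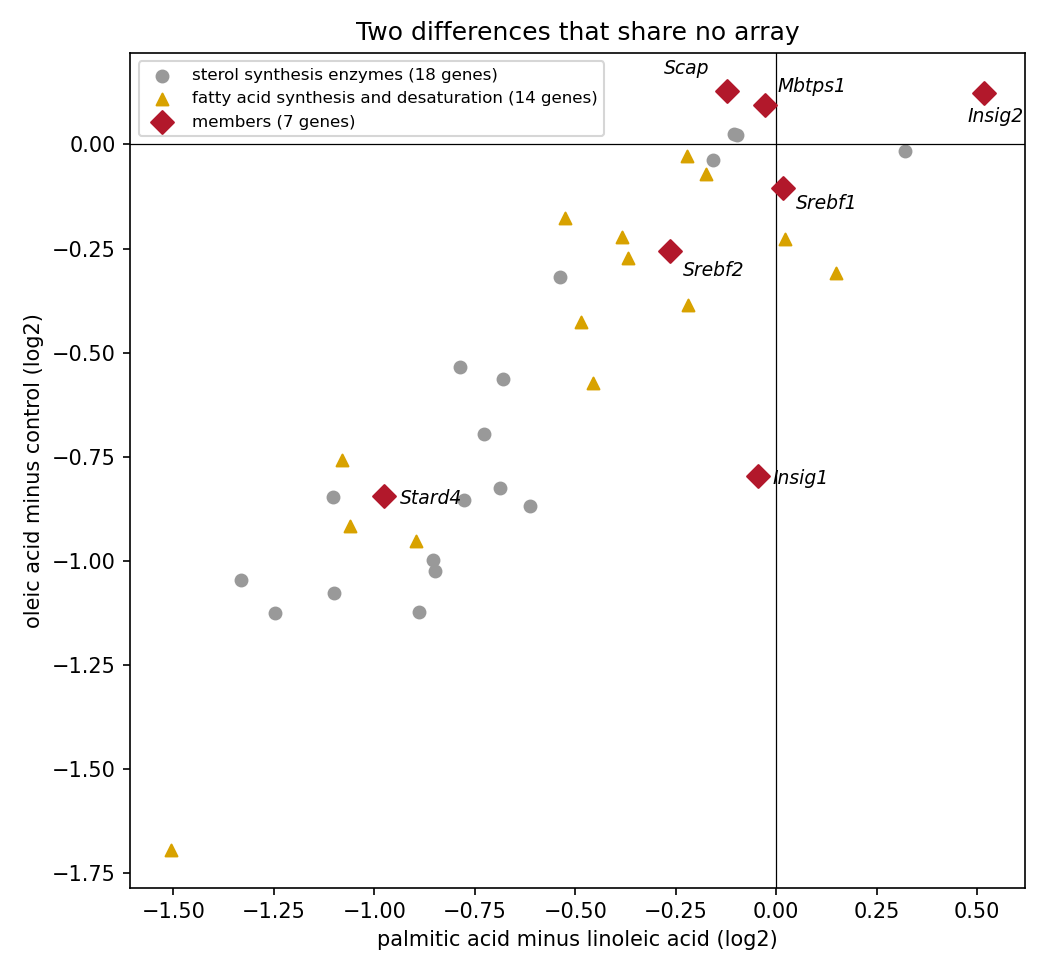
Palmitic minus linoleic acid (horizontal axis) against oleic acid minus control (vertical axis), both as differences in log2 value, for 7 members, 18 sterol synthesis enzymes and 14 genes of fatty acid synthesis. Stard4 lay among the enzymes at the lower left, and Insig1 lay at -0.80 on the vertical axis and near 0 on the horizontal.

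The targets of the SREBP proteins gave the setting for these differences. Of 105 listed genes around the members, 94 were measured and 86 kept, and the others are not analysed here. Of the 18 sterol synthesis enzymes, 0 were past 1.5-fold upward and 9 downward with palmitic acid against the control (list median -0.59). Of all kept genes, 2.17% and 1.41% were. With oleic acid 0 and 11 were (-0.84), beside 0.376% and 0.34% of all genes. With linoleic acid 0 and 0 were (0.13), beside 0.0358% each way. Insig1 lay above 17 of these 18 enzymes in palmitic acid minus control and above all 18 in palmitic minus oleic acid. The exception was Ggps1 (0.32), whose enzyme is on a branch off the sterol path. With oleic acid against the control it lay in their midst, above 10 and below 8. The isomerase gene Idi1 was at -1.04 with palmitic acid and -1.08 with oleic acid, and the synthase gene Hmgcs1 at -0.87 and -0.85. Lss, which codes for lanosterol synthase, was at -0.89 and -1.13, and Hsd17b7 at -0.90 and -1.05.

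With linoleic acid the highest enzymes were Hsd17b7 (0.44) and Lss (0.35), close to Stard4 (0.39). Centred on its own mean, the Stard4 profile over the 4 arrays lay at a Euclidean distance of 0.31 from the mean profile of the 18 enzymes. Srebf2 lay at 0.44, Srebf1 at 0.64, Insig1 at 0.65 and Insig2, the farthest, at 1.01. Ggps1 (0.32), Dhcr7 (-0.11) and Ebp (-0.11) were the enzymes nearest to or above the control with palmitic acid.

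Genes of fatty acid synthesis and desaturation, the main targets of SREBP1, numbered 14. Against the control, 0 were past 1.5-fold upward and 3 downward in the palmitic acid array (median -0.27), beside 2.17% and 1.41% of all genes. With oleic acid 0 and 4 were (-0.35), beside 0.376% and 0.34%. With linoleic acid 0 and 0 were (0.10), beside 0.0358% each way. The desaturase gene Scd2 was at -1.28 with palmitic and -1.69 with oleic acid, and the elongase gene Elovl6 at -1.01 and -0.76. Fasn, which codes for fatty acid synthase, was at -0.55, -0.95 and 0.35 in the palmitic, oleic and linoleic acid arrays against the control. Srebf1 itself was at 0.18, -0.10 and 0.17 in these arrays.

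Of 11 genes of INSIG, reductase and SREBP degradation, 1 passed 1.5-fold upward and 1 downward with palmitic acid against the control, with a median of 0.08. They were the ubiquitin ligase genes Syvn1 (0.65) and Rnf145 (-0.77), and Rnf145 was at -0.02 with oleic acid. Of 12 genes of SCAP and SREBP transport to the Golgi, 1 was higher and 0 lower, the COPII coat gene Sec24d (0.87), with a median of 0.16. These are single genes, beside 2.17% of all kept genes higher and 1.41% lower in that comparison, and the medians of both lists were far short of 1.5-fold. Paqr3, whose product tethers SCAP and SREBP at the Golgi, was at -0.31 with palmitic acid and 0.21 with oleic acid. With oleic and with linoleic acid 0 genes of either list passed 1.5-fold, beside at most 0.376% of all genes in either direction. The medians lay between 0.01 and 0.08.

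Genes of sterol uptake and transfer beside Stard4 differed little. Of 6 genes of lipoprotein uptake and lysosomal export, 0 passed 1.5-fold in any comparison with the control, and Npc1, which codes for the lysosomal cholesterol exporter, was at 0.33 with palmitic acid and 0.11 with oleic acid. Of 13 further sterol transfer genes 0 passed it against the control. At most 2.17% of all kept genes passed it in either direction there. Among these the widest were Osbpl3 (-0.51 with palmitic and -0.47 with oleic acid), Osbpl8 (0.44 with palmitic acid) and Gramd1a (-0.41 with palmitic acid). Stard3 and Stard5, which also have a START domain, were at 0.20 and -0.10 with palmitic acid and at 0.18 and 0.02 with oleic acid, where Stard4 was at -0.59 and -0.84.

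Of 8 LXR receptor and target genes 1, Mylip, passed 1.5-fold downward with palmitic (-0.98) and oleic acid (-0.80) and 0 upward. The medians were -0.09 and 0.04. Of all kept genes, 2.17% passed it upward and 1.41% downward with palmitic acid. With oleic acid 0.376% and 0.34% did. Mylip codes for the ligase that degrades lipoprotein receptors, and in macrophages it is induced by LXR. Abca1, the cholesterol exporter gene, was at -0.31 with palmitic and -0.20 with oleic acid. Of 4 genes of sterol esterification and oxysterol formation 1 was lower with palmitic acid, Ch25h (-1.02), which codes for the enzyme that makes 25-hydroxycholesterol, an oxysterol that binds INSIG proteins. Ch25h was at 0.10 with oleic acid and 0.25 with linoleic acid. With linoleic acid 0 genes of these 2 lists passed 1.5-fold, beside 0.0358% of all kept genes each way.

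Over the 86 kept pathway genes, 2 passed 1.5-fold upward and 15 downward with palmitic acid against the control, beside 2.17% and 1.41% of all genes. With oleic acid 0 and 16 did, beside 0.376% and 0.34%, and with linoleic acid 0 and 0, beside 0.0358% each way. Palmitic against oleic acid had 1 higher and 2 lower, beside 1.82% and 1.66%. Palmitic against linoleic acid had 1 and 22, beside 1.58% and 2.01%. Linoleic against oleic acid had 21 and 0, beside 0.707% and 0.34%. With palmitic acid against the control, all 7 kept mesothelial and fibroblast markers also lay lower, with a median of -0.25, and the 11 macrophage markers had a median of -0.08. With oleic acid these medians were -0.01 and 0.05. Single markers moved further, and those named here were chosen after their values were seen. The macrophage receptor gene Fcgr1 was at -0.66 with palmitic acid and 0.65 with oleic acid, past 1.5-fold in both. The fibroblast receptor gene Pdgfra was at -0.86 with palmitic acid and -0.06 with oleic acid. Kit, the 1 kept marker of 6 for mast cells, was at -0.45 with palmitic, -0.46 with oleic and 0.34 with linoleic acid. In palmitic minus linoleic acid it was at -0.79, the same order of signs as Stard4. Its level was 6.85 with palmitic and with oleic acid, below the brightness limit of 7.09, 7.64 with linoleic acid and 7.30 in the control. The other mast cell markers, all below that limit, lay from -0.04 (Tpsb2) to 0.10 (Cma1) with palmitic acid. With oleic acid they lay from -0.06 (Fcer1a) to 0.18 (Mcpt4), and with linoleic acid from -0.10 (Fcer1a) to 0.22 (Cma1). Kit was the brightest of the 6 in every array. Their summed linear signal was 373 with palmitic acid, 381 with oleic acid, 472 with linoleic acid and 413 in the control. The part of mesothelial cells, fibroblasts or mast cells in the members' values was not tested.

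**Figure D4:**
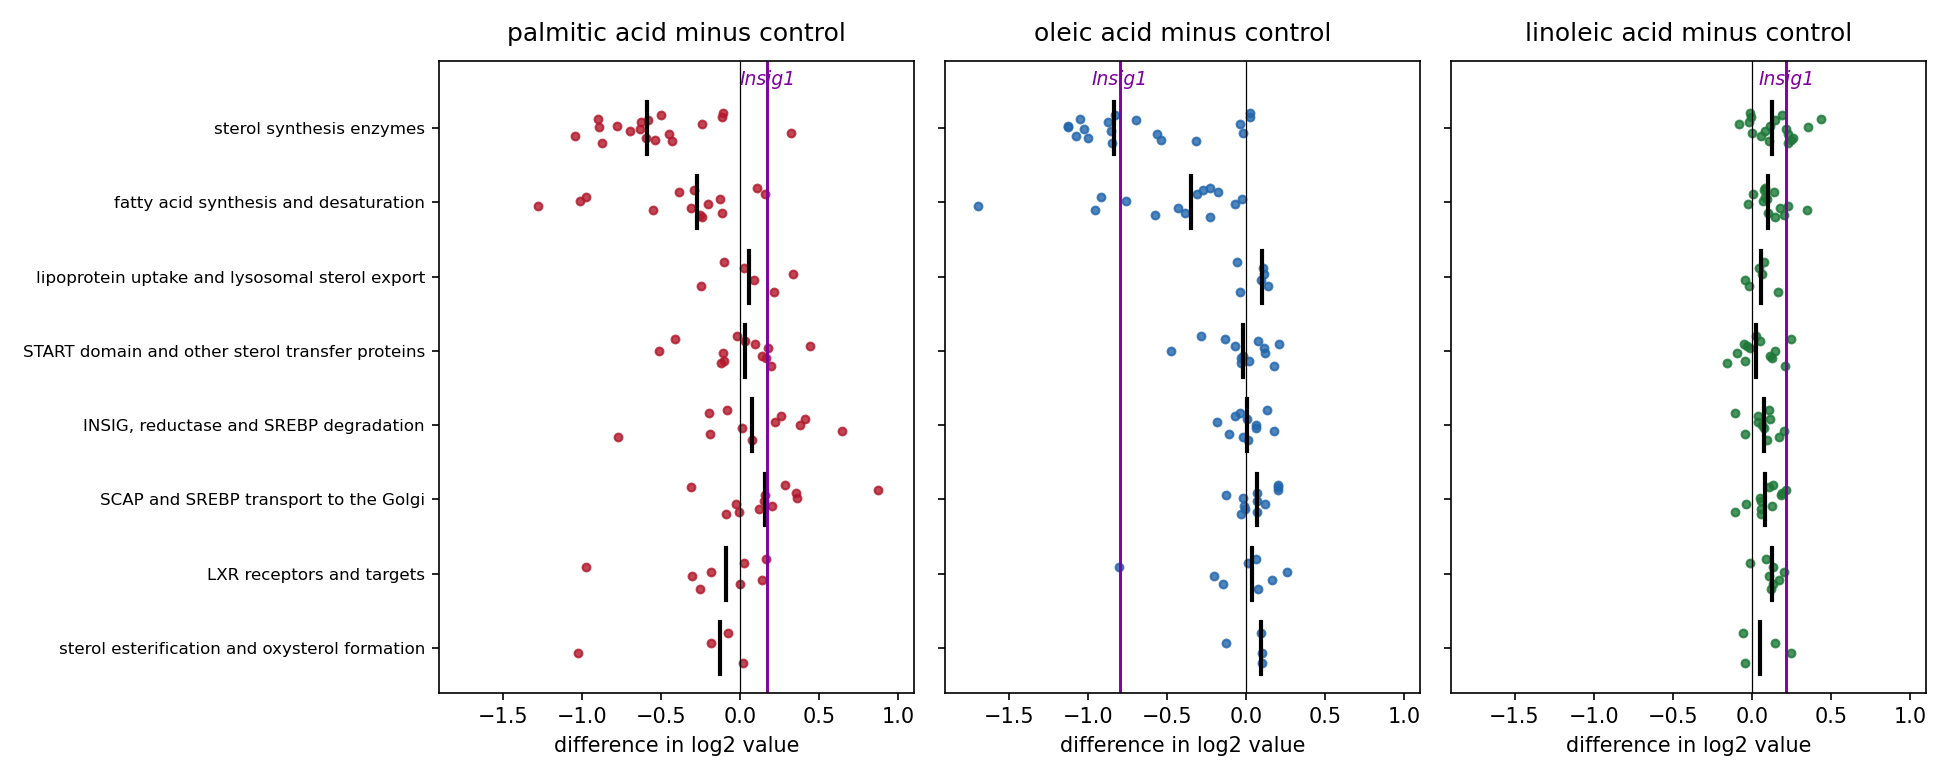
Difference in log2 value (horizontal axis) of each kept gene of the 8 lists (rows), 1 panel per fatty acid against the control, with black bars at list medians and a purple line at Insig1. Insig1 lay to the right of 17 of 18 sterol synthesis enzymes with palmitic acid and among them with oleic acid.

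The genes whose 4-array profile was nearest to that of Insig1, by Euclidean distance after centring each gene on its own mean, were Pdp2 (0.24), Gdap10 (0.28), Phxr4 (0.28), Olfr111 (0.32) and Tmem178 (0.33). Pdp2, which codes for a phosphatase that activates pyruvate dehydrogenase, was at 8.19 with palmitic acid, 7.50 with oleic acid, 8.22 with linoleic acid and 8.11 in the control. Picked for its likeness to Insig1 over these same arrays, Pdp2 was also low with oleic acid alone, by 0.61 on the log2 scale (-0.61). Srebf2 was the nearest member, at a distance of 0.52 and position 87, followed by Srebf1 at 0.61 and Stard4 at 0.71. Insig2 was the farthest member, at 0.88. The likeness rests on 4 arrays.

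**Figure D5:**
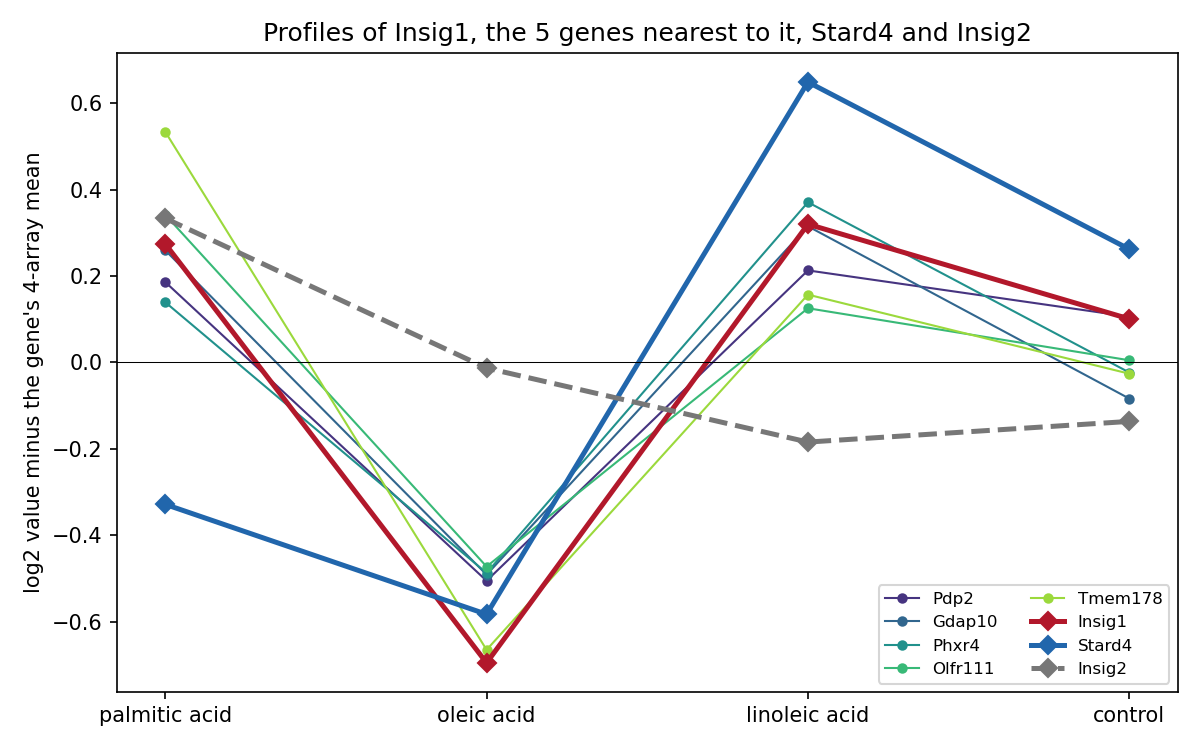
Log2 value minus the gene's 4-array mean (vertical axis) on each array (horizontal axis) for Insig1, the 5 genes nearest to it, Stard4 and Insig2, with lines to guide the eye. Insig1 and the 5 genes, which were picked for likeness over these arrays, dip on the oleic acid array. Stard4 also lies low on the palmitic acid array.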

How the data were processed

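The deposited values are log2 expression values made by the authors with RMA (background correction, quantile normalisation and probe summary), per the submitters' processing notes. The version and summary level of RMA, like the genome build, are not stated in the sources used. The table holds 35556 probes on 4 arrays, each of RNA pooled from 3 samples with integrity numbers above 8.0, per the labels' protocols. The platform annotation gave 21789 probes exactly 1 gene, 1621 several and 12146 none listed here. Symbols were checked by Entrez ID in a RefSeq table of GRCm38.p6, which held 21698, and 0 changed.

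From these values, Python 3.11.15 with pandas 2.3.3 averaged probes per gene and kept genes whose highest value reached log2 7.09, the median of the table, a brightness limit and not a detection call. Differences were taken between arrays in 6 comparisons. With 1 array a group, array number limits precision. The counting was tested on simulated data with added changes, whose noise was set from linoleic acid minus control. That comparison had the smallest robust SD over genes, 0.11, against 0.19 for palmitic acid minus control. The simulation therefore does not cover the wider spread of the palmitic acid comparisons. Named were all members, the 2 genes highest and lowest in each list against the control, with some of them left out here, 10 set genes where measured, and the 5 nearest to Insig1 without gene models. Members and lists were chosen with earlier results of these data known. Alternatives were 2 scalings, 3 filters, 2 probe rules, a floor, other folds and another likeness.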

Additional observations from a re-analysis of the deposited data

How the results depend on the processing

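Of 210 recomputed member differences (5 alternatives of scaling, probe rule or floor), 208 moved by at most 0.1 on the log2 scale. Many of these could not move. Each measured member had 1 probe of its own and lay above the floor, so the brightest-probe rule and the floor changed none. Counting shared probes could change Srebf2 alone among them. Only the 2 scalings could move every member. The other 2 were those of Srebf2 with the second probe averaged in (linoleic minus control 0.18, linoleic minus oleic acid 0.44). Insig1 ranged from -0.80 to -0.78 for oleic acid minus control and from 0.95 to 0.97 for palmitic minus oleic acid. Insig1 less the median of the other members kept within 0.1 of its value in all 6 comparisons. Centred arrays left 0 members lower with palmitic acid, since Stard4 was then at -0.58. At 1.3-fold, 1 member was higher with palmitic acid (Insig2) and 1 with linoleic acid (Stard4) against the control, and 1 with palmitic against linoleic acid (Insig2), and 3 rather than 2 with linoleic against oleic acid (Srebf2 beside Stard4 and Insig1). At 2-fold, 0 members were lower with palmitic or oleic acid against the control or with palmitic against linoleic acid, and 0 higher with palmitic against oleic acid. Pathway genes at 1.3-fold numbered 5 higher and 24 lower with palmitic acid and 1 higher with linoleic acid against the control, 11 higher and 5 lower for palmitic against oleic acid and 3 higher for palmitic against linoleic acid. At 2-fold they were 0 and 4 with palmitic acid, 6 lower with oleic acid, 0 and 1 for palmitic against oleic acid, 0 and 9 for palmitic against linoleic acid and 10 higher for linoleic against oleic acid. These counts follow from the threshold, and the share of all kept genes past 1.3-fold or 2-fold was not computed. By Pearson correlation 0 of the 5 genes nearest to Insig1 were shared, since that measure leaves out the size of the profile. The shortened sterol element was found in 1 of the 7 searched members. No paired analysis was possible because each group has 1 array. No replicate could be left out.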
